A study of Mus musculus with 14 samples.

Results

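The proteasome genes measured here were those whose symbol starts with Psma, Psmb, Psmc, Psmd, Psme, Psmf or Psmg, without the immunoproteasome genes Psmb8, Psmb9 and Psmb10. The array carried probes for 42 of them among 16593 named genes, and 41 were tested among 9711 genes whose probe was detected. RNA of whole mouse liver was hybridised to 14 arrays on Illumina BeadChips, 1 array per sample. By the chip numbers in the column headers the arrays lay on slides 1 and 2, each with arrays of all 4 groups. The livers were sampled 1 week after hydrodynamic delivery, a rapid injection of a large volume of fluid. This delivery had carried a plasmid into the liver that coded either for the cytokine IL-13 (interleukin 13) or for EGFP, a green fluorescent protein. The EGFP plasmid was given to 4 wild-type and 4 Alb-Cre+ samples, and the IL-13 plasmid to 3 wild-type and 3 Alb-Cre+ samples. The series title places Alb-Cre on a floxed IL4Ra background, so that the albumin promoter drives the recombinase Cre in hepatocytes while the other cells of the liver keep the receptor chain. The labels give no strain, age or sex, and do not say whether the wild-type mice carry the floxed allele. Every group received a plasmid, and none was left untreated. Nothing in the labels says that the samples are separate mice, and the p-values then cover only sample-to-sample spread, which may be technical.

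The proteasome degrades proteins that carry a chain of ubiquitin. Its 20S core is a barrel of alpha rings, which gate the entrance, around beta rings, of which Psmb5, Psmb6 and Psmb7 hold the cutting sites. The 19S cap binds ubiquitin, unfolds the substrate with a ring of ATPases and feeds it into the core. Other activators can take the place of the cap, and dedicated chaperones help the core and the base of the cap to assemble. Hepatocytes turn over large amounts of protein and express all constitutive subunits, and the transcription factor NFE2L1 raises their genes when proteasome activity is short. The 41 tested genes comprised 6 of the alpha ring, 7 of the beta ring, 6 cap ATPases, 10 other cap subunits, 4 activators and 6 assembly chaperones. The other two, Psmc3ip and Psme3ip1, code for partners that share only the name. The only probe for Psma1 was not detected on any array. Psma8, Psmb11, Psmd3, Psmf1 and Psmg4 are not analysed here.

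Under IL-13, wild-type livers had higher levels of many subunits of the core and the cap. Of the 41 genes, 18 rose and 2 fell, where 21.5% of all genes rose and 19.2% fell. That is 43.9% and 4.88% of the proteasome genes. At an unadjusted p under 0.05, 23 of 41 and 47.7% of all genes passed. The changes were small, with a median of 0.25 on the log2 scale beside a median of 0.0008 for all genes, and the largest was 1.75-fold. The log2 change was positive for 34 of 41. All wild-type IL-13 arrays lay above all wild-type EGFP arrays for 21 genes and below them for 2, and among all genes this held for 22.7% and 20.7%. A gene is said to have risen or fallen when limma's two-sided test, adjusted by Benjamini-Hochberg over 9711 genes, gave a p under 0.05. For the other probes of a gene, the p of that test was adjusted over all 14109 kept probes instead. Levels are normalised log2 intensities, given as mean ± SD, and log2 changes carry limma's standard error.

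The count depended on how the arrays were normalised. Background correction with quantile normalization, the setting of the values given here, gave 18 rises (beside 21.5% of all genes). Quantile normalization without background correction gave 19 (beside 21.3%). The authors' deposited log2 table, which has neither step and scales each array by 1 constant, gave 8 (19.5% beside 18.2% of all genes). Background correction with scaling by the median in place of quantile normalization gave 6 (14.6% beside 17.8%). Of the 41 genes, 9 had a mean level under 6, 4 between 6 and 8, 12 between 8 and 10, 15 between 10 and 12 and 1 above 12. Among genes with a mean level between 10 and 12, the median change in wild type was 0.05 for all 688 genes and 0.41 for the 15 proteasome genes with quantile normalization. It was -0.21 and 0.11 with median scaling, and -0.16 and 0.14 in the deposited table. In this range the median of the proteasome genes lay above that of all genes under each of the 3 settings, whereas most of the 18 calls against 0 were lost under the other two. Psmc4, Psmd4, Psma5, Psmb5, Psmd8 and Psmd9 rose under all 3.

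**Figure D1:**
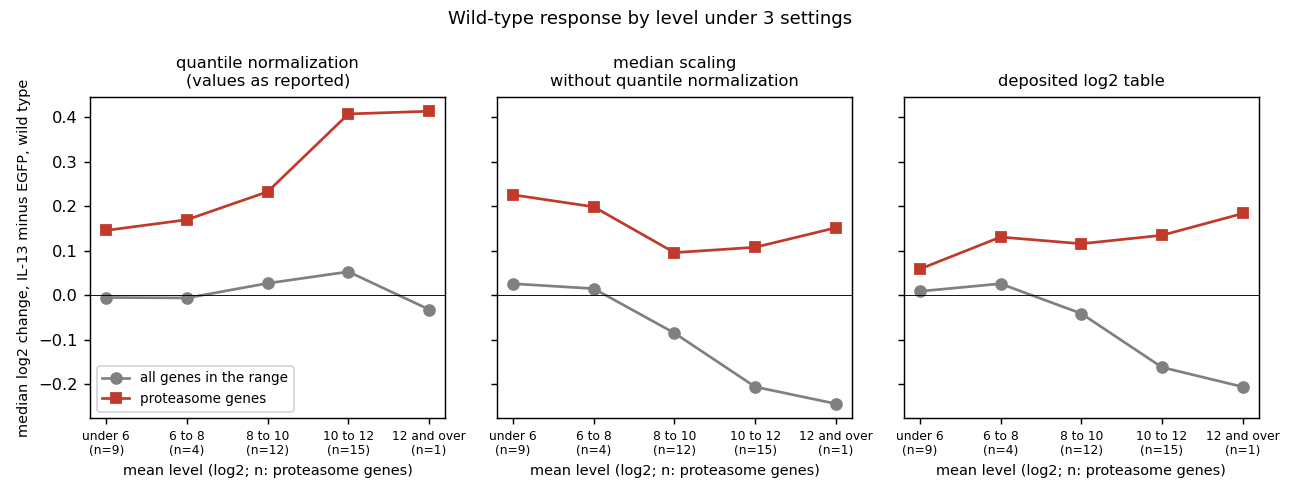
Median log2 change from EGFP to IL-13 in wild-type liver (vertical axis) by mean level in log2 intensity (horizontal axis), for all genes (grey circles) and for the proteasome genes (red squares), under 3 settings. In the range from 10 to 12 the red point lies at 0.41, 0.11 and 0.14 while the grey point lies at 0.05, -0.21 and -0.16.

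**Figure D2:**
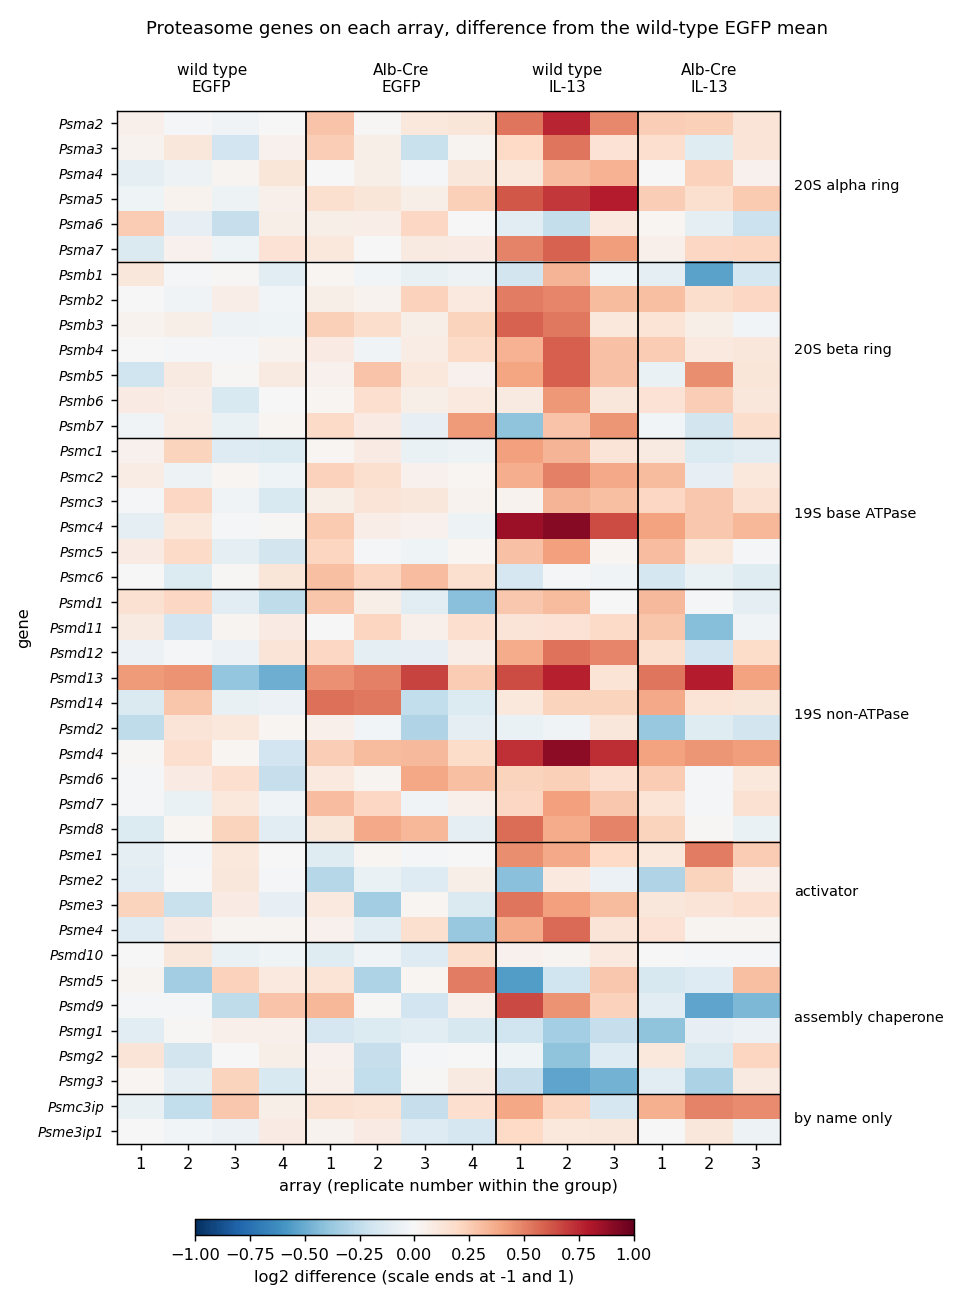
Difference of each of the 41 proteasome genes on each of the 14 arrays from the gene's wild-type EGFP mean, in log2 units, with genes ordered by role and arrays by group. The wild-type IL-13 arrays are red for most core and cap genes, their medians over the 41 genes being 0.27, 0.37 and 0.19, while the Alb-Cre IL-13 arrays have medians of 0.14, 0.026 and 0.11.

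The largest rises came from a cap ATPase, a ubiquitin receptor of the cap and an alpha ring subunit. Psmc4, an ATPase of the unfolding ring, measured 10.17, 10.37, 10.24 and 10.28 on the wild-type EGFP arrays and 11.12, 11.17 and 10.91 on the wild-type IL-13 arrays. Every IL-13 array was above every EGFP array. Its log2 change was 0.80 ± 0.10, or 1.75-fold (adjusted p = 1.27e-05). Psmd4, which binds ubiquitin chains, measured 10.80, 10.95, 10.80 and 10.59 with EGFP and 11.52, 11.68 and 11.53 with IL-13. The groups were again apart, with a change of 0.79 ± 0.098, or 1.73-fold (adjusted p = 1.00e-05). Psma5 of the alpha ring measured 10.95, 11.03, 10.95 and 11.05 with EGFP and 11.62, 11.70 and 11.78 with IL-13. Its change was 0.71 ± 0.088, or 1.63-fold (adjusted p = 1.04e-05), again without overlap. These 3 genes rose in all 30 alternative settings, with log2 changes between 0.55 and 0.88, 0.50 and 0.85, and 0.40 and 0.79.

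Their promoter windows, which reach from 250 bases before to 50 after the annotated start in RefSeq (assembly GRCm38.p6), are shown because these 3 genes changed most. Each is written 5′ to 3′ on the gene's strand, at chr7:28050043-28050342 (minus strand), chr3:95042565-95042864 (minus strand) and chr3:108256676-108256975 (plus strand). Capitals mark CCAAT, the box bound by the factor NF-Y, on either strand.
Psmc4: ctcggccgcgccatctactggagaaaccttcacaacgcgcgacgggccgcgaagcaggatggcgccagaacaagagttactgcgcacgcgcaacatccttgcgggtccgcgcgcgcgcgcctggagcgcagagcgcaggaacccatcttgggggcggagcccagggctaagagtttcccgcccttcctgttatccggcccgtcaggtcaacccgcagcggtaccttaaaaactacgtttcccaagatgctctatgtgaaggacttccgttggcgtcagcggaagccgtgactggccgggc
Psmd4: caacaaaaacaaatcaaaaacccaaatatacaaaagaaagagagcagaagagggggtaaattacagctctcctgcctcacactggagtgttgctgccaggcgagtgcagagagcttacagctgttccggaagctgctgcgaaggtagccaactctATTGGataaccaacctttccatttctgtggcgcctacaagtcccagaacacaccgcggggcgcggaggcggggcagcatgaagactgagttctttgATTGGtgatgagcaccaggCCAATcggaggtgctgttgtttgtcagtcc
Psma5: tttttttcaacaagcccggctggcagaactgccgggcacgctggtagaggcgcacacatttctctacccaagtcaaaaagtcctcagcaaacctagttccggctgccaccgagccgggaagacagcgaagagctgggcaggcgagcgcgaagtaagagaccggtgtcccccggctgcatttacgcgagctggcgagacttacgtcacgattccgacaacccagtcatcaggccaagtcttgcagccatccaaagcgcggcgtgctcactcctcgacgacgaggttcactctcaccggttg
The Psmd4 window held the box 3 times, at positions -95, 2 and 21 from the start, and the other two windows did not hold these letters. Of the 41 genes, 35 had a window. CCAAT on either strand, a motif added after the levels were seen, stood in 13 of them (37.1%), beside 41.1% of all 27025 genes with a window. The core of the antioxidant response element, TGACNNNGC on either strand, which NFE2L1 and NFE2L2 bind with a small Maf partner, stood in 6 of 35 (17.1%), beside 14.0% of all. Both motifs were searched apart, and no gene among the proteasome genes held both. The 6 were Psmb5, Psmb6, Psmc6, Psmd12, Psmd9 and Psme4, of which Psmb5, Psmd12, Psmd9 and Psme4 rose and the other two did not pass the test. The match of Psmb5 began at position -47 from the start and that of Psmd12 at -247. These windows, at chr14:54617946-54618245 (minus strand) and chr11:107479278-107479577 (plus strand), are shown with the core in capitals.
Psmb5: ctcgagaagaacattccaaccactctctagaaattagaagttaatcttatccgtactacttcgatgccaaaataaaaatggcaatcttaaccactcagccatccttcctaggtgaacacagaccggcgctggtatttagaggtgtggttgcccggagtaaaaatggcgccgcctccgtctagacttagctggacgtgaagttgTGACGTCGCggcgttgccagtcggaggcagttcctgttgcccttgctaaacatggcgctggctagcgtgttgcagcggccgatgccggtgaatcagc
Psmd12: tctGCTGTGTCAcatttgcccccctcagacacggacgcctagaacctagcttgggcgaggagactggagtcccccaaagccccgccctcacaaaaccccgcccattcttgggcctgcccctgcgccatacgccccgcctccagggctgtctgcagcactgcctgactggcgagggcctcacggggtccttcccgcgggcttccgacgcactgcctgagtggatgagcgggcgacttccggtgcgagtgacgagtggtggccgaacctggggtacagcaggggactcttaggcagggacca
A match is a run of letters and not a measured binding site.

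In the alpha ring, 3 of 6 genes rose and none fell, with a median change of 0.40. Beside this and each role below, 21.5% of all genes rose and 19.2% fell in wild type. The counts by role are those with background correction and quantile normalization. Over all 41 genes, fewer rose with median scaling or in the deposited table. Psma2 measured 11.60, 11.54, 11.52 and 11.56 with EGFP and 12.09, 12.31 and 12.04 with IL-13 in wild type. It rose by 0.59 ± 0.098 (adjusted p = 0.000161), with no overlap. Psma7 rose by 0.50 ± 0.096 (adjusted p = 0.000586), and another probe of it gave the same change of 0.50. Psma3 (0.29 ± 0.13, adjusted p = 0.0880) and Psma4 (0.25 ± 0.099, adjusted p = 0.0538) did not pass. Psma6 was detected on 7 of 14 arrays, near the floor, and its change was -0.09 ± 0.12.

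Beta ring genes rose in 4 of 7 cases (21.5% of all genes rose) and fell in none, with a median of 0.41. Psmb5 carries the site that cuts after hydrophobic residues. It measured 5.31, 5.60, 5.53 and 5.60 with EGFP and 5.91, 6.11 and 5.81 with IL-13, so the wild-type groups did not overlap. The change was 0.43 ± 0.13 (adjusted p = 0.0149). Psmb6 and Psmb7, which hold the sites that cut after acidic and after basic residues, changed by 0.21 ± 0.10 (adjusted p = 0.122) and 0.11 ± 0.17 (adjusted p = 0.668) and did not pass. Psmb7 varied most among the wild-type IL-13 arrays, at 10.33, 11.01 and 11.17. Its 2 other probes changed by 0.13 (adjusted p = 0.437) and by -0.20 (adjusted p = 0.218). The structural subunits Psmb2 (0.44 ± 0.091), Psmb3 (0.41 ± 0.11) and Psmb4 (0.41 ± 0.098) rose, with adjusted p of 0.00113, 0.00882 and 0.00290. Of the 2 other probes of Psmb2, 1 rose by 0.40 and the other changed by 0.06 (adjusted p = 0.782). Psmb1 measured 10.66 ± 0.091 with EGFP and 10.70 ± 0.27 with IL-13.

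Among the 6 ATPases of the cap, Psmc2 (0.41 ± 0.10, adjusted p = 0.00456) and Psmc1 (0.29 ± 0.11, adjusted p = 0.0496) rose beside Psmc4, and none fell. Of all genes 21.5% rose and 19.2% fell. The call of Psmc1 was lost in 17 of 30 alternative settings, most of which left out 1 array. Psmc3 and Psmc5 changed by 0.22 and 0.24 and did not pass. Psmc6 was near the floor at 4.66 ± 0.10 with EGFP and 4.59 ± 0.080 with IL-13. Of the 10 other cap subunits, 4 rose and none fell, with a median of 0.25. They were Psmd4 and the lid subunits Psmd12, Psmd8 and Psmd7. Psmd12 rose by 0.47 ± 0.12 (adjusted p = 0.00399), but its other probe changed by 0.06 ± 0.16. Psmd8 measured 5.03, 5.18, 5.39 and 5.06 with EGFP and 5.73, 5.54 and 5.66 with IL-13, again with the groups apart. It rose by 0.48 ± 0.13 (adjusted p = 0.00769). Psmd7 rose by 0.30 ± 0.10 (adjusted p = 0.0324), and its other probe rose by 0.45. Psmd14, the enzyme that strips ubiquitin from the substrate and pairs with Psmd7, changed by 0.19 ± 0.18 (adjusted p = 0.450). Psmd2, a scaffold that also binds ubiquitin, changed by 0.01 ± 0.12, and it was detected on 10 of 14 arrays. Psmd13 had the widest spread in wild-type EGFP liver, from 8.90 to 9.84, with both lower arrays on the same slide. Its change of 0.52 ± 0.22 (adjusted p = 0.0757) did not pass.

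Activators that can replace the cap rose in 3 of 4 cases in wild type, where 21.5% of all genes rose. Psme1, a subunit of the PA28 ring, measured 10.36, 10.44, 10.56 and 10.46 with EGFP and 10.92, 10.83 and 10.66 with IL-13, and rose by 0.35 ± 0.11 (adjusted p = 0.0177). The other probe of Psme1 changed by 0.26 ± 0.14 (adjusted p = 0.146). Psme2, the ring partner of Psme1, did not pass, with a change of -0.13 ± 0.14 (adjusted p = 0.514). Psme3, which forms the nuclear PA28 ring, rose by 0.42 ± 0.12 (adjusted p = 0.0130), and Psme4, the single-chain activator PA200, by 0.36 ± 0.13 (adjusted p = 0.0400). None of these 3 passed with median scaling or in the deposited table.

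The assembly chaperones were the only role whose median was negative, at -0.18, and the only one with falls. Psmg3, which pairs with Psmg4 to build the alpha ring, measured 8.16, 8.05, 8.37 and 7.99 with EGFP and 7.91, 7.62 and 7.67 with IL-13. It fell by 0.41 ± 0.13 on the log2 scale (adjusted p = 0.0185) without overlap. Psmg1 measured 8.19, 8.31, 8.35 and 8.35 with EGFP and 8.10, 7.96 and 8.07 with IL-13. Its change of -0.26 ± 0.10 stood just under the threshold (adjusted p = 0.050), and it lost the call in 21 of 30 alternative settings. Psmg2, its partner, changed by -0.19 ± 0.12 (adjusted p = 0.233), while another probe of it fell by 0.37 (adjusted p = 0.0224). Of the chaperones of the cap's base, Psmd10 (0.06 ± 0.095) and Psmd5 (-0.16 ± 0.21) did not pass. Psmd9 rose by 0.45 ± 0.15 (adjusted p = 0.0298), but its other probe changed by -0.12 ± 0.15 (adjusted p = 0.560), so its direction depended on the probe. Pomp, a core assembly factor outside the name rule, measured 11.83 ± 0.016 with EGFP and 11.88 ± 0.083 with IL-13 in wild type and did not pass (adjusted p = 0.666). Psmc3ip and Psme3ip1 changed by 0.15 ± 0.15 and 0.14 ± 0.094.

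**Figure D3:**
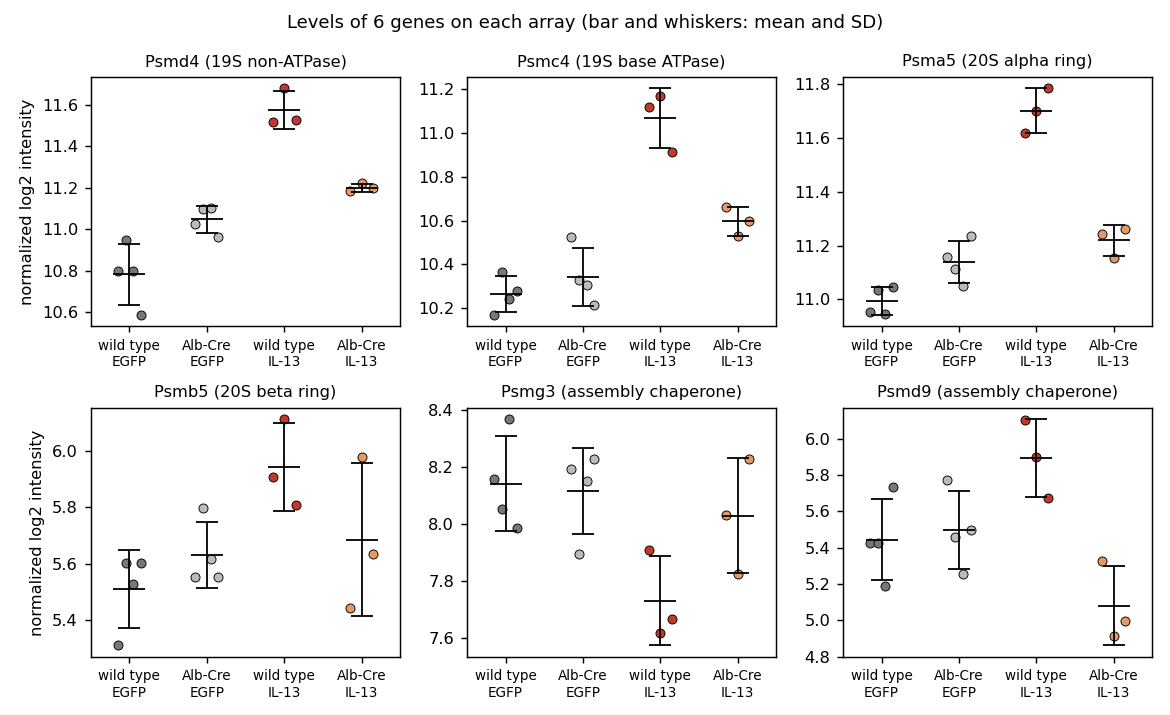
Normalised log2 intensity of 6 genes on each array (points) by group, with mean and SD (bars and whiskers); each panel has its own vertical axis, which does not start at 0. Psmc4, Psmd4, Psma5 and Psmb5 lie higher on all 3 wild-type IL-13 arrays than on the 4 wild-type EGFP arrays, and Psmg3 lies lower.

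In Alb-Cre livers no proteasome gene rose under IL-13 and 1 fell, where 11.1% of all genes rose and 7.83% fell by limma's test. At an unadjusted p under 0.05, 5 of 41 and 31.0% of all genes passed. The median change was 0.05, beside -0.02 for all genes, and it was 0.04 over the 29 core and cap subunits, whose median in wild type was 0.29. All Alb-Cre IL-13 arrays lay above all Alb-Cre EGFP arrays for 6 genes and below them for 2, and among all genes for 15.1% and 13.7%. Psmc4 measured 10.53, 10.33, 10.30 and 10.21 with EGFP and 10.66, 10.53 and 10.60 with IL-13, a change of 0.25 ± 0.10 (adjusted p = 0.0978). Psmd4 measured 11.03, 11.10, 11.11 and 10.96 with EGFP and 11.18, 11.22 and 11.20 with IL-13. Its groups were apart, but the change of 0.15 ± 0.098 did not pass (adjusted p = 0.318). Psma5 measured 11.16, 11.11, 11.05 and 11.24 with EGFP and 11.24, 11.15 and 11.26 with IL-13. These groups overlapped, with a change of 0.08 ± 0.088 (adjusted p = 0.598). Psme1 came close to the threshold, with a change of 0.32 ± 0.11 (adjusted p = 0.0511).

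The fall was that of the cap ATPase Psmc6. It measured 4.96, 4.88, 4.97 and 4.82 on the Alb-Cre EGFP arrays and 4.49, 4.60 and 4.54 on the Alb-Cre IL-13 arrays. All IL-13 arrays were lower, and the change was -0.37 ± 0.092 (adjusted p = 0.0106). The probe was near the floor and detected on 2 of the 3 Alb-Cre IL-13 arrays. The call was lost in 5 of 28 alternative settings, among them median scaling, the deposited table and the sex covariate described below.

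The response to IL-13 was tested for a difference between the genotypes with an interaction term. Of the 41 genes, 7 had a lower response in Alb-Cre than in wild type and none a higher one, where 6.5% of all genes had a lower and 6.65% a higher one. At an unadjusted p under 0.05, 15 of 41 and 26.6% of all genes passed. The difference was negative for 35 of the 41, and for 29 of 29 core and cap subunits, beside 5039 of 9711 genes. The median difference was -0.27 over the proteasome genes and -0.01 over all genes. The largest belonged to Psmd9 (-0.86 ± 0.22, adjusted p = 0.0167), whose other probe gave -0.32 ± 0.21 (adjusted p = 0.377). It was followed by Psmd4 (-0.64 ± 0.14, adjusted p = 0.00704), Psma5 (-0.63 ± 0.12, adjusted p = 0.00367), Psmd8 (-0.61 ± 0.18, adjusted p = 0.0402) and Psmc4 (-0.55 ± 0.14, adjusted p = 0.0204). Psmb3 (-0.53 ± 0.16, adjusted p = 0.0420) and Psma2 (-0.52 ± 0.14, adjusted p = 0.0223) complete the 7. The calls of Psmd8 and Psmb3 were lost in 18 and 16 of 29 alternative settings, and those of the other 5 in 3 to 7. None of the activators passed, and Psme1 had nearly the same change in both genotypes, with a difference of -0.03 ± 0.15. The assembly chaperones Psmg1, Psmg2 and Psmg3 had differences of 0.22, 0.30 and 0.32, and none passed.

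This count too moved with the normalisation. It was 10 with quantile normalization and no background correction, where 6.81% of all genes had a lower response. It was 1 in the deposited table, which lacks both steps and where Psma5 passed, beside 2.81% of all genes. With median scaling it was none, beside 3.27% of all genes. The difference was negative for 24 of 29 core and cap subunits in the deposited table and with median scaling alike, with medians of -0.11 and -0.17. Over all 41 genes it was negative for 27 in the deposited table and for 25 with median scaling. Without wild-type IL-13 replicate 2, or without Alb-Cre IL-13 replicate 3, 4 genes passed, beside 5.05% and 4.36% of all genes with a lower response.

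**Figure D4:**
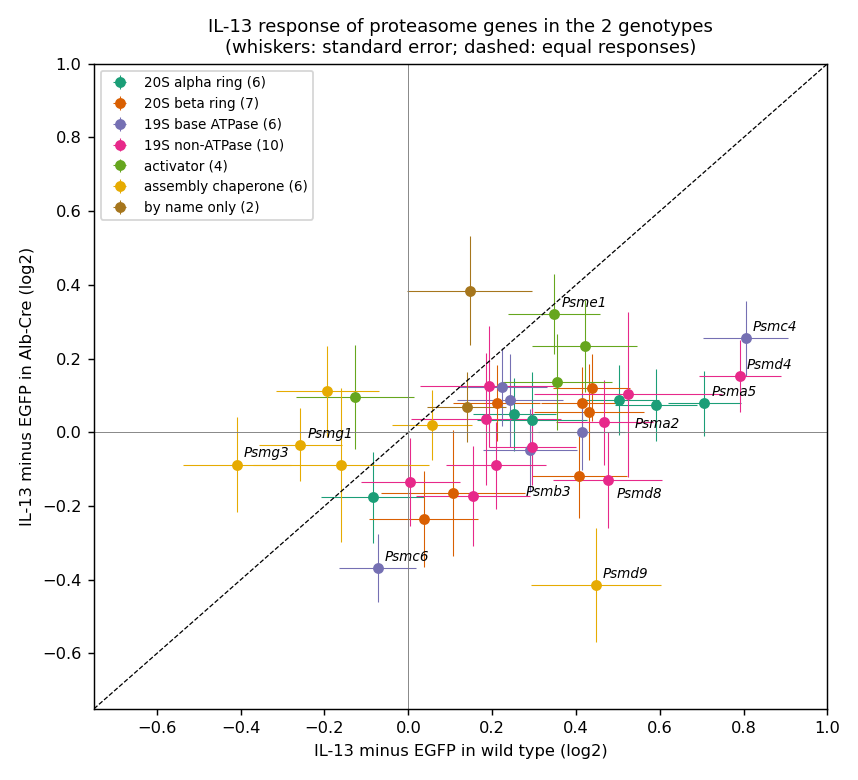
Log2 change from EGFP to IL-13 in wild type (horizontal axis) and in Alb-Cre (vertical axis) for the 41 proteasome genes, coloured by role, with standard errors as whiskers and the line of equal responses dashed. All 29 core and cap subunits lie below the line, and Psmc4, Psmd4 and Psma5 lie farthest to the right at 0.80, 0.79 and 0.71.

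Levels under IL-13 were also compared between the genotypes. This comparison uses the same IL-13 arrays as the comparisons above. Of the 41 genes, 9 were lower in Alb-Cre and none higher, where 11.2% of all genes were lower and 10.7% higher. They were Psma2, Psma5, Psma7, Psmb3, Psmc4, Psmd12, Psmd4, Psmd8 and Psmd9, with log2 differences between -0.81 and -0.35. At an unadjusted p under 0.05, 15 of 41 and 33.2% of all genes passed. All Alb-Cre IL-13 arrays lay below all wild-type IL-13 arrays for 16 genes and above them for none, and among all genes for 17.2% and 15.9%. The count of 9 was 2 in the deposited table, where 6.87% of all genes were lower, and 1 with median scaling, where 6.94% were. Under EGFP no gene passed by limma's test, among the 41 or among all genes (0% in either direction). At an unadjusted p under 0.05, 3 of 41 and 3.75% of all genes did. The 3 were Psmc6 (0.25 ± 0.085), Psmd4 (0.26 ± 0.091) and Psmd13 (0.47 ± 0.21), all higher in Alb-Cre. The EGFP arrays of Alb-Cre lay above those of wild type for 3 genes and below them for 1, and among all genes for 1.37% and 1.43%. The median difference under EGFP was 0.08, and it was -0.01 in the deposited table and -0.02 with median scaling. The EGFP arrays of Alb-Cre had medians of 0.095, 0.057, 0.018 and 0.052 against the wild-type EGFP mean.

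Among genes that work with the proteasome, changes went both ways. Of 10 tested partners and assembly factors, none passed in any IL-13 comparison by limma's test. Among all genes 40.7% passed in wild type, 18.9% in Alb-Cre and 13.2% for the difference of responses. At an unadjusted p under 0.05, 1 partner passed in wild type (47.7% of all genes), none in Alb-Cre (31%) and 1 for the difference of responses (26.6%). Sem1, a small cap subunit, changed by 0.28 ± 0.13 (adjusted p = 0.107) in wild type, and Usp14, a cap-bound enzyme that trims ubiquitin, by -0.14 ± 0.14. The interferon-inducible subunits Psmb8, Psmb9 and Psmb10 did not pass in any comparison, with wild-type changes of -0.38, -0.16 and -0.21. At an unadjusted p under 0.05, none of the 3 passed either. Of 13 genes of NFE2L1 control and p97 extraction, 4 rose and 4 fell in wild type (30.8% each, beside 21.5% and 19.2% of all genes), and 2 fell in Alb-Cre (15.4% beside 7.83%). Nfe2l1 itself measured 10.11, 9.80, 9.80 and 9.58 with EGFP and 9.44, 9.39 and 9.17 with IL-13 in wild type. It fell by 0.49 ± 0.12 (adjusted p = 0.00393), and its change in Alb-Cre was -0.09 ± 0.12 (adjusted p = 0.658). Nfe2l2, the related factor of the oxidative stress response, fell by 0.99 ± 0.14 in wild type (adjusted p = 2.64e-05) and by 0.54 ± 0.14 in Alb-Cre (adjusted p = 0.0112). Mafg, a small Maf partner, fell by 0.46 ± 0.11 and by 0.42 ± 0.11 (adjusted p = 0.00301 and 0.0127). Vcp, the p97 ATPase that extracts ubiquitinated proteins, rose by 0.43 ± 0.12 in wild type (adjusted p = 0.00710), a call lost in the deposited table and with median scaling.

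Enzymes that attach ubiquitin changed in both directions. Of 22 conjugating enzymes, 3 rose and 7 fell in wild type (13.6% and 31.8%, beside 21.5% and 19.2% of all genes), and in Alb-Cre 1 rose and 3 fell (4.55% and 13.6%, beside 11.1% and 7.83%). Ube2n, which builds chains linked through a lysine used in signalling, fell by 1.11 ± 0.11 in wild type (adjusted p = 1.31e-06), and Ube2d2a rose by 0.72 ± 0.10 (adjusted p = 3.09e-05). Of 4 tested ubiquitin and E1 genes, Uba7 fell, by 0.93 ± 0.12 (adjusted p = 1.85e-05). It activates the ubiquitin-like protein ISG15. Of 19 autophagy genes, which serve the lysosomal route of degradation, 3 rose and 5 fell in wild type (15.8% and 26.3%), near the shares of all genes. None rose and 4 fell in Alb-Cre (21.1% beside 7.83%).

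The RNA came from whole liver, so fewer cells of a type and less RNA per cell cannot be told apart. Hepatocyte markers were abundant on every array. In wild type under IL-13, 1 of 11 rose and 7 fell, and their summed linear level went from a range of 110087 to 116716 to one of 88072 to 95734. In Alb-Cre none rose and 1 fell, with ranges of 107425 to 114911 and 97110 to 109512. Of 7 monocyte and macrophage markers 4 rose and 2 fell in wild type and 5 rose in Alb-Cre. Their summed level was 1540 to 1805 and 9600 to 10571 in wild type, and 1561 to 1916 and 4106 to 6311 in Alb-Cre. In wild type the brightest with IL-13 were Retnla and Chil3, undetected with EGFP, with log2 changes of 7.87 and 7.72. Lgals3 and Ccl6 also rose, by 3.10 and 3.82. Lyz1 and Lyz2, the brightest with EGFP, fell from means of 10.27 and 8.20 to 8.65 and 6.81. Under IL-13 the log2 difference of Chil3, Alb-Cre minus wild type, was -3.91. The sum thus leaned on a few genes and does not measure the number of these cells. All 8 neutrophil markers rose in both genotypes, with sums of 227 to 486 and 1346 to 2951 in wild type and 209 to 318 and 987 to 2317 in Alb-Cre. Of 5 cycling cell markers 1 fell in wild type, while 5 rose in Alb-Cre, from sums of 140 to 161 to sums of 479 to 741. Of 7 Kupffer cell markers 4 rose and 2 fell in wild type and 4 rose in Alb-Cre, and of 8 stellate cell markers 5 rose and 1 fell and 6 rose. Of 7 endothelial markers 1 rose and 2 fell in wild type and 1 rose and 1 fell in Alb-Cre. Beside all these marker counts, 21.5% of all genes rose and 19.2% fell in wild type. In Alb-Cre 11.1% rose and 7.83% fell. No probe has a level of 0 on this scale, and markers that failed the detection filter, such as Ccr2, Itgam and Cd68, were left out of the sums. The part of these cells in the proteasome values was not tested.

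Sex-linked transcripts divided the arrays. On wild-type IL-13 replicate 3 and all 3 Alb-Cre arrays of the IL-13 plasmid, the Y-linked gene Eif2s3y was detected and Xist, the RNA of the inactive X, was not. The other 10 arrays showed the reverse. In Alb-Cre the pattern and the plasmid therefore cannot be told apart. Without these 4 arrays, 19 proteasome genes rose in wild type and none fell, beside 21.3% and 17.7% of all genes. With the pattern as a covariate, 19 rose and none fell in wild type, beside 21.1% and 17.4% of all genes. Psma5 and Psmd4 had lower responses in Alb-Cre (4.22% of all genes), and 1 gene was lower in Alb-Cre under IL-13 (6.14%). Only wild-type IL-13 replicate 3 separates the pattern from the groups, so the covariate rests on that array, its wild-type calls are those of the fit without it, and it is no test of the pattern.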

How the data were processed

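RNA of 14 whole-liver samples was measured on 1 array each. The authors deposited a table of linear probe intensity and a detection p-value per array, per the file headers, and the submitters' processing notes name GenomeStudio 2011.1. They also deposited a log2 table, which equals log2 of the intensity plus 1 constant per array (largest gap 6.6e-05) and served as an alternative that lacks both the background correction and the quantile normalization. Other steps are not given in the sources used here. Of the array's 25697 probes, 11554 to 13261 were detected per array (45.0 to 51.6%), with a mean intensity of 283 to 354 and replicate correlations of 0.985 to 0.995. The number of arrays limits the precision.

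With limma 3.58.1 in R 4.3.3, intensities were corrected by normexp from the detection p-values (offset 16), quantile normalized and taken to log2 (neqc). Probes with a detection p under 0.05 on at least 3 arrays were kept (14109), named through the platform table, and checked against RefSeq gene IDs (23962 matched, 0 symbols changed). Each gene was read from its brightest kept probe (by the mean of the 14 arrays), and levels of different probes are not compared. Other probes were read from a limma fit of all kept probes, adjusted over these 14109. In that fit Psmg1 (adjusted p = 0.0559) and Psmc1 (adjusted p = 0.0543) did not pass in wild type. Of 63 probes for proteasome genes 57 were kept. A model with 1 mean per group over 14 arrays (10 residual degrees of freedom) was fitted to all 9711 genes, adjusted over them with a threshold of 0.05, and tested on simulated data. Groups and replicate numbers come from the sample titles, whose numbers differ from the descriptions' for 2 of the 3 wild-type samples given IL-13. The genes named are the largest changes that passed in each comparison (10 per direction in wild type), a set of catalytic, receptor, activator and chaperone genes, and up to 4 per other list with the smallest p. Members, lists and tests were chosen with earlier results of these data known. Alternatives varied the background correction, scaling, filter, probe, spread, slide, replicate number, sex pattern and each array left out. The other probe of a gene, and the fit without the 4 arrays with Y-linked transcripts, were chosen after seeing the data.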

Additional observations from a re-analysis of the deposited data

Results flagged for a closer look

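Of the 41 proteasome genes, 7 had responses to IL-13 that differed between the genotypes by limma's interaction test. All 7 were lower in Alb-Cre, where 6.5% of all genes were lower. The count was 1 in the deposited table (2.81% of all genes) and 0 with median scaling (3.27%). The other probe of Psmd9 did not pass (adjusted p = 0.377), and in Alb-Cre the sex-linked pattern coincided with the plasmid. The differences, Alb-Cre minus wild type, were -0.52 for Psma2 (adjusted p = 0.0223), -0.63 for Psma5 (0.00367), -0.53 for Psmb3 (0.0420), -0.55 for Psmc4 (0.0204), -0.64 for Psmd4 (0.00704), -0.61 for Psmd8 (0.0402) and -0.86 for Psmd9 (0.0167).

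In 3 cases 1 array of the Alb-Cre EGFP group stood apart from the other 3, relative to the range of the group. Psma7 measured 10.58 on replicate 2, with the others between 10.67 and 10.69, a small gap beside nearly equal values. Psmc3ip measured 4.39 on replicate 3, with the others between 4.75 and 4.78. Psmb10 measured 8.78 on replicate 1, with the others between 9.34 and 9.44. Chance marks about 1 in 20 groups, and 96 groups of 4 arrays were examined.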

How the results depend on the processing

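The number of arrays, and for Psma6, Psmc6, Psmd2 and Psmc3ip a signal near background, limit these values. For wild type, the count of 18 rises became 8 in the deposited table (18.2% of all genes rose) and 6 with median scaling (17.8%). It lay between 12 and 19 with 1 array left out (18.7 to 21.7% of all genes), 12 being without wild-type IL-13 replicate 2. Slide 2 alone holds 1 IL-13 array of each genotype, so for the comparisons with IL-13 only its medians are given. The count of 2 falls became 1 with median scaling, the slide as a block, or a trended and robust spread. It was 0 with the sex covariate, on slide 1 alone and without the 4 arrays with Y-linked transcripts. Among all genes, 12.4 to 19.6% fell in these settings. The count of falls lay between 0 and 2 with 1 array left out, beside 16.6 to 19.3% of all genes. It was 0 without wild-type EGFP replicate 3 or wild-type IL-13 replicate 2 or 3. The median of 0.25 became 0.13 in the deposited table, 0.20 without background correction, 0.12 with median scaling, 0.29 for genes detected on all 14 arrays, 0.31 with the sex covariate or without the 4 arrays, 0.32 with array weights and 0.21 on slide 2, and lay between 0.20 and 0.32 with 1 array left out (0.20 without wild-type IL-13 replicate 2). In Alb-Cre, 2 genes rose without background correction, with offset 50 or with array weights, and 1 with median scaling, with detection on all arrays, with no filter, with the sex covariate or with the trended spread. Among all genes, 5.63 to 12.4% rose in these settings. The 1 fall became 0 in the deposited table, with median scaling, with detection on all arrays, with the sex covariate and on slide 1 alone. It became 2 with the mean of probes or with the other probe. Among all genes, 2.74 to 10.1% fell in these settings. With 1 array left out, 0 to 2 rose (2 without wild-type IL-13 replicate 3), 1 to 2 fell (2 without Alb-Cre EGFP replicate 3 or Alb-Cre IL-13 replicate 1) and the median lay between 0.013 and 0.059. Among all genes, 8.67 to 12.2% rose and 5.05 to 9.11% fell in these fits. For the difference of responses, the 7 became 1 in the deposited table (2.81% of all genes had a lower response) and 0 with median scaling (3.27%). They became 2 with the sex covariate (4.22%) and 0 on slide 1 alone (1.17%). The median of -0.27 became -0.059 in the deposited table, -0.17 without background correction, -0.21 with offset 50, -0.072 with median scaling, -0.21 with the sex covariate, -0.32 with array weights and -0.32 on slide 1. Leaving out 1 array gave 4 to 8 genes (4.36 to 7.2% of all genes) and medians of -0.31 to -0.18, 4 being without wild-type IL-13 replicate 2 or Alb-Cre IL-13 replicate 3. Under IL-13, the 9 genes lower in Alb-Cre became 2 in the deposited table (6.87% of all genes were lower) and 1 with median scaling (6.94%). They became 1 with the sex covariate (6.14%), 1 on slide 1 (4.83%) and 5 with the other probe (9.4%). With 1 array left out they became 3 to 9, beside 7.58 to 11.3% of all genes (3 without wild-type IL-13 replicate 2, 5 without Alb-Cre IL-13 replicate 3). The median of -0.20 became -0.069 in the deposited table, -0.11 without background correction, -0.16 with offset 50, -0.093 with median scaling, -0.12 with the sex covariate and -0.14 on slide 2, and -0.23 to -0.13 with 1 array left out (-0.13 without wild-type IL-13 replicate 2). Under EGFP the median of 0.077 became -0.0088 in the deposited table, -0.018 with median scaling and 0.038 on slide 2, and 0.052 to 0.089 with 1 array left out, while no gene passed in either direction. Psmd9 turned to -0.12 in wild type on its other probe, and Pomp to -0.27 in the deposited table. The causes of these shifts were not tested, and single slides hold fewer arrays.

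With the replicate number as a block, 16 genes rose and 1 fell in wild type (20.7% and 18.7% of all genes), 16 of the 17 being called without it. In the other comparisons the block gave 0 rises and 1 fall in Alb-Cre (10.2% and 6.66% of all genes), 7 lower responses (6.3%) and 10 genes lower under IL-13 (11.1%). Deviations of the 19 pairs with the same number correlated between -0.121 and 0.283 (median 0.019, against -0.011 for other pairs). All pairs with the same number also shared a slide, and the titles and descriptions number some wild-type IL-13 samples differently. These correlations therefore cannot tell whether the numbers pair the samples.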

Other observations

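Heat shock chaperones responded to IL-13 differently in the genotypes. Of 9 tested genes of chaperones and aggregate handling, 1 rose and 5 fell in wild type (21.5% and 19.2% of all genes), 1 rose and none fell in Alb-Cre (11.1% and 7.83%), and 5 had a higher response in Alb-Cre by limma's interaction test (6.65%). Hspa1a, the inducible heat shock protein, measured 6.75, 6.14, 5.84 and 5.84 on the wild-type EGFP arrays and 4.69, 4.50 and 4.36 on the wild-type IL-13 arrays. On the Alb-Cre arrays it measured 5.26, 4.84, 5.76 and 6.15 with EGFP and 6.32, 6.97 and 7.90 with IL-13. It fell by 1.63 ± 0.34 in wild type (adjusted p = 0.00112) and rose by 1.56 ± 0.34 in Alb-Cre (adjusted p = 0.00389), with an adjusted p of 0.000454 for the difference. Retnla, undetected on the wild-type EGFP arrays, had a mean of 4.28 there. The wild-type IL-13 values of Hspa1a thus stood near the floor, which leaves uncertain the size of the fall of Hspa1a. Dnajb1, a co-chaperone of that protein, fell by 1.71 ± 0.20 in wild type (adjusted p = 4.90e-06) and changed by 0.13 ± 0.20 in Alb-Cre. Hsph1, its exchange factor, fell by 1.98 ± 0.27 (adjusted p = 2.28e-05) and changed by 0.32 ± 0.27 in Alb-Cre. Sqstm1, a receptor that carries ubiquitinated proteins to autophagy, rose by 0.69 ± 0.12 in wild type (adjusted p = 0.000281). In Alb-Cre the sex-linked pattern coincided with the plasmid, and its part in these values was not tested.

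Among autophagy genes, Ulk2 fell by 1.24 ± 0.12 in wild type (adjusted p = 4.83e-07) and by 0.51 ± 0.12 in Alb-Cre (adjusted p = 0.00531). Atg5 fell by 1.08 ± 0.11 and by 0.41 ± 0.11 (adjusted p = 1.25e-06 and 0.0157). Wipi1 rose by 1.06 ± 0.14 in wild type (adjusted p = 1.82e-05).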
